A study of Mus musculus with 4 samples.

Results

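The Toll-like receptor genes described here are the receptors Tlr1, Tlr2, Tlr3, Tlr4, Tlr5, Tlr6 and Tlr9, the adaptors Myd88 and Ticam1, and the chaperone Unc93b1. These 10 genes were chosen by name, and every ATAC-seq peak that overlapped the annotated gene body or the 10 kb on either side of it was taken. This gave 186 peaks in 4 libraries, which merged into 55 of the 71243 accessible regions of the series. ATAC-seq marks open chromatin by the insertion of a transposase. The cells were bone marrow-derived macrophages (BMDMs), cultured from mouse marrow in a DMEM-based mixed medium with 10% FBS and 20% L929-conditioned medium. The general protocol is 6 to 8 days, and the study names a single day within that range for its ATAC-seq. There were 2 libraries of each genotype, numbered as biological replicates in the sample titles. WT cells were H3f3a fl/fl H3f3b fl/fl without Cre. The conditional knockout (cKO) cells carried the same floxed alleles of the 2 genes for histone H3.3 together with LysM-cre/cre, which is active in myeloid cells. Both were on a C57BL/6 background. Since only cKO cells carried Cre, the loss of H3.3 and the presence of Cre at the Lyz2 locus cannot be told apart, and the study describes the deletion of H3f3b as variable.

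Toll-like receptors recognise conserved molecules of microbes and start the inflammatory response of macrophages. TLR1, TLR2, TLR4, TLR5 and TLR6 reach the cell surface, where TLR2 pairs with TLR1 or TLR6 to bind lipopeptides, TLR4 binds lipopolysaccharide and TLR5 binds flagellin. TLR3 and TLR9 bind double-stranded RNA and unmethylated DNA in endosomes, and UNC93B1 is the chaperone that carries them there. MyD88 is the adaptor of all these receptors except TLR3, while TRIF, the product of Ticam1, serves TLR3 and endosomal TLR4.

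In each library a region was described by the percentile of its peak area among all peaks of that library's list, where 100 is the strongest. A region with a peak in each library is called shared. A gained region had a peak in both cKO lists and in no WT list, and a lost region the reverse. A shared region was counted as higher or lower in cKO when its 2 cKO percentiles lay both above or both below its 2 WT percentiles. With 2 libraries against 2, the exact permutation test over 6 assignments cannot give a two-sided p below 0.333. With this test no single difference could therefore pass a threshold of 0.05, and the comparisons are descriptions of these 4 libraries. Whether fewer cells were open at a region, or each cell was less open, cannot be told apart in bulk libraries.

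The sequences below are those of the regions in which the genotypes differed most at these genes: the 5 regions with peaks in a single genotype, and the shared region with the widest gap. Each is a window of at most 201 bases around the summit of the region's strongest peak, read from the RefSeq assembly GRCm38.p6 (mm10) on the strand of the named gene. The Tlr1 and Tlr6 windows are printed only as far as they lie outside untranslated exons, while the motif counts given further on use the full windows. Capitals mark matches to 6 motifs searched on both strands: AP-1 (TGANTCA), PU.1 (GAGGAAGT), C/EBP (TTGCNNAA), a repeat bound by interferon regulatory factors (IRF, GAAANNGAA), RUNX (AACCACA) and NF-kB. The matches did not overlap each other. The Tlr1 window (chr5:64933562-64933658, minus strand) held a PU.1 match, and the proximal Unc93b1 window (chr19:3931813-3932013, plus strand) and the window beyond Myd88 (chr9:119328653-119328853, minus strand) a C/EBP match each. The Tlr6 window (chr5:64960098-64960210, minus strand), the upstream Myd88 window (chr9:119343187-119343387, minus strand) and the distal Unc93b1 window (chr19:3928051-3928251, plus strand) held no match.
Tlr1 promoter, lost: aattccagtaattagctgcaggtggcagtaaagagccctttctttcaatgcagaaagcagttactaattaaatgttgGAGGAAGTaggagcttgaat
Tlr6 promoter, gained: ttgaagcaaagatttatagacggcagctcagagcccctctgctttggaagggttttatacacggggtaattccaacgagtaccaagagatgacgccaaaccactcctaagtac
Unc93b1 upstream proximal, lost: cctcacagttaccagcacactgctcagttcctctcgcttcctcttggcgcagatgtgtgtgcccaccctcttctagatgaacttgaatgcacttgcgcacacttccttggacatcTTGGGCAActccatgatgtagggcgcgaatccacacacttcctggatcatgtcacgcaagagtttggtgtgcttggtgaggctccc
Unc93b1 upstream distal, lost: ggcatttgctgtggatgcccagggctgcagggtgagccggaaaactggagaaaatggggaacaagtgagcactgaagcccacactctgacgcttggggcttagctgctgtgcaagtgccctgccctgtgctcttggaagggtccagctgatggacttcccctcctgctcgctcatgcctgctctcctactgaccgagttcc
Myd88 upstream, lost: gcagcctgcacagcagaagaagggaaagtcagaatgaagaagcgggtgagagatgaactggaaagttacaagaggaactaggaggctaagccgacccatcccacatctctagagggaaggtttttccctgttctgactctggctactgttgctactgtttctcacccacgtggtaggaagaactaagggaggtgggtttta
Myd88 downstream, shared: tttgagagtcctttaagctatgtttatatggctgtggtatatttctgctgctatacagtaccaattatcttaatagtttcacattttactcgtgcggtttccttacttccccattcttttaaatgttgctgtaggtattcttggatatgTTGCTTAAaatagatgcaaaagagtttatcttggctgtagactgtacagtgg

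Most accessible regions at the 10 genes were called in both genotypes, at shares close to those over all regions, and the differences lay at single elements. Of the 55 regions, 37 were shared (67.3%, against 62.9% of all regions), 1 was gained, 4 were lost and 13 were called in other combinations of libraries. The WT lists held peaks in 45 and 51 of the regions, and the cKO lists in 40 and 47. Over all regions of the series 3.72% were gained and 7.25% lost, against 1.82% and 7.27% at these genes, so the lost share was that of the background. Among the 37 shared regions 8 were higher and 16 lower in cKO (21.6% and 43.2%), and the percentiles of the other 13 overlapped. The background over all 44820 shared regions was 22.2% higher and 35.1% lower. With lists limited to equal length, 11 were higher and 15 lower, and the background was 36.8% and 35.7%. The shared regions at these genes were not counted for those lists, so no share is given. Over all shared regions, lower calls thus no longer outnumbered higher ones, so these calls depend on list length. The counts by role and by gene below use the full lists. The median difference, cKO minus WT, was -1.22 percentile points at these genes and -1.10 over all shared regions.

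The gap between the genotypes was at least 10 percentile points in 6 shared regions. It was to the higher side in 2 (5.41%, with a background of 5.20%) and to the lower side in 4 (10.8%, with a background of 9.66%). The next widest gap was 7.26 points, at Unc93b1. The 13 regions called in other combinations held weak peaks, with percentiles from 0.456 to 44.6 and a median of 14.9. Of them, 4 had a peak in 1 WT library alone and 2 in 1 cKO library alone, 3 lacked a peak in 1 cKO library, 2 lacked one in 1 WT library, and 2 had 1 peak in each genotype.

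**Figure D1:**
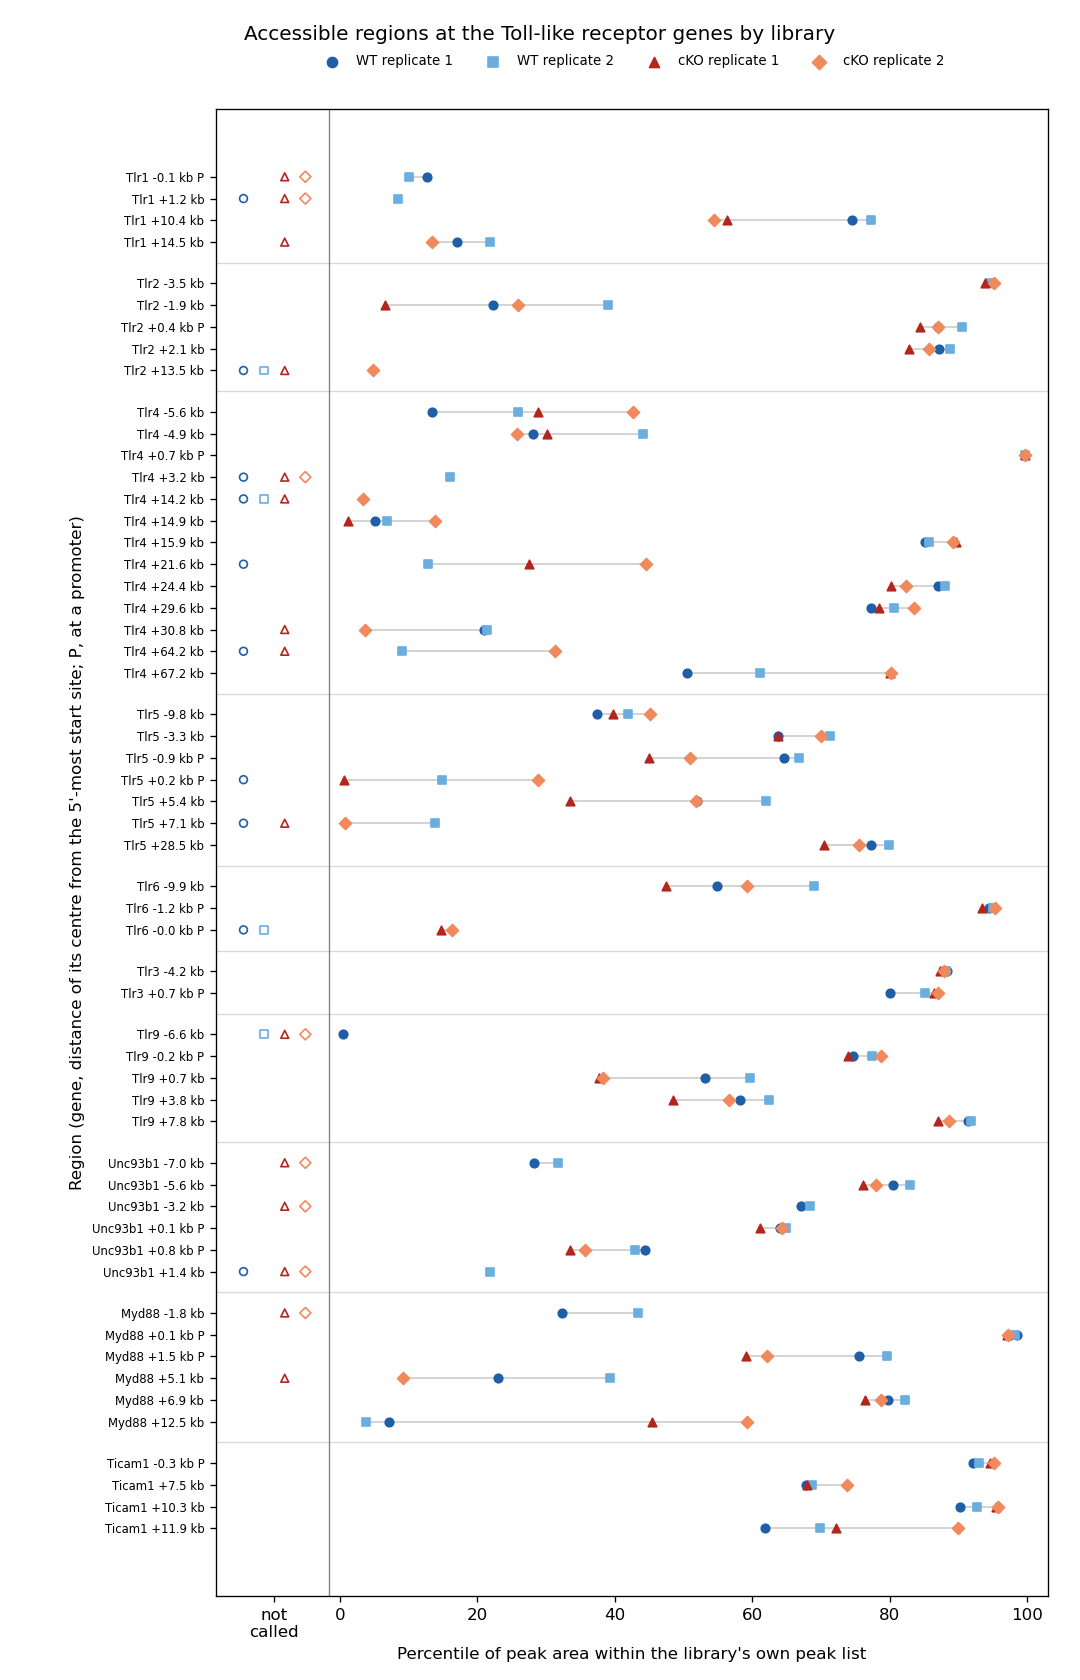
Percentile of peak area (x axis, within each library's own list) of each of the 55 regions at the Toll-like receptor genes, with filled symbols for the 4 libraries and open symbols at the left where a library had no peak. Labels give the distance of the region's centre from the 5′-most start site, and P marks promoters. The Tlr4 promoter lies at 99.7 in all libraries, and the 5 gained or lost regions all lie below 70.

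By gene, 1 of the 10 had a gained region and 3 had a lost region. Over the 16367 protein-coding genes with a region in the same kind of window, 11.1% had a gained and 21.8% a lost region. A shared region higher by at least 10 points was present at 2 of the 10 genes and at 10.1% of all, and one lower by at least 10 points at 4 of the 10 and at 18.3% of all. These genes had a median of 5 regions, against 3 for all protein-coding genes, which gives each more chances of a call. Promoters were taken as 1 kb upstream to 100 bp downstream of any annotated start. A promoter region was shared at 9 of the 10 genes, with Tlr1 as the exception, against 53.3% of all 21755 protein-coding genes. A gained promoter region was seen at Tlr6 and a lost one at Tlr1, where the background was 0.896% and 1.83% of genes.

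The groups by role were set side by side. The surface receptors had 32 regions, of which 20 were shared, 1 gained, 1 lost and 10 otherwise called, and 3 of the shared regions were higher and 7 lower. Their shares of gained (3.12%) and lower regions (35.0%) were close to the backgrounds of 3.72% and 35.1%, while the higher share was 15.0%, against 22.2%. The endosomal receptors and their chaperone had 13 regions, with 9 shared, none gained and 2 lost, and 1 of the 9 was higher and 6 were lower (11.1% and 66.7%). The 2 adaptors had 10 regions, with 8 shared, none gained and 1 lost, and 4 of the 8 were higher and 3 lower. The median difference was -1.84 points for the surface receptors, -3.79 for the endosomal group and 2.47 for the adaptors. Each group rests on few regions at few genes, and differences between the groups were not tested.

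**Figure D2:**
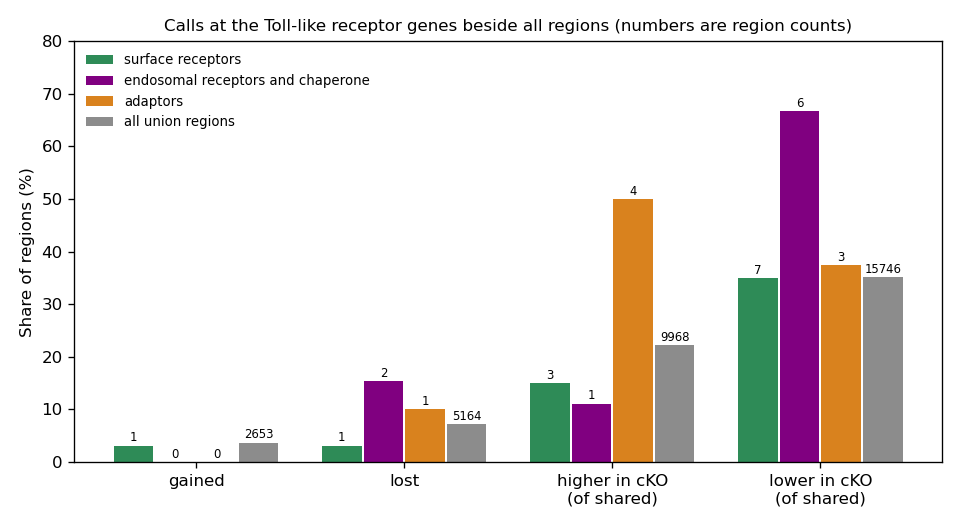
Share of regions (y axis, %) that were gained, lost, or, among shared regions, higher or lower in cKO, for 3 groups of Toll-like receptor genes and for all 71243 regions, with the count above each bar. The 6 lower regions of the endosomal group are 66.7% of its 9 shared regions and the 7 of the surface receptors 35.0% of 20, beside 35.1% of all shared regions.

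Among the surface receptors, Tlr4 had the most regions and the strongest. The gene (ENSMUSG00000039005.13, chr4:66827584-66930284, plus strand) had 13 regions, of which 8 were shared and none gained or lost. Its promoter region (chr4:66827181-66829415) lay at percentile 99.7 in every library and was 2235 bp wide. The area there was 5492 and 6192 in WT against 6091 and 6899 in cKO, so the strongest peak of the family had the same rank to 3 digits in both genotypes.

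An intronic region of Tlr4, 67.2 kb from the start (chr4:66894487-66895035), was the clearest region of the surface receptors on the higher side. Its percentile was 50.5 and 61.1 in WT against 80.1 and 80.2 in cKO. The 2 cKO libraries were nearly identical, and both lay at least 19.1 points above WT. The means were 55.8 ± 7.49 (SD, n = 2) for WT against 80.2 ± 0.0474 (SD, n = 2) for cKO, a difference of 24.4 points. The window at its summit held an AP-1 match. A region 21.6 kb into the gene (chr4:66848610-66849854), singled out after its values were seen, had no peak in WT replicate 1 and lay at 12.9 in WT replicate 2, 27.6 in cKO replicate 1 and 44.6 in cKO replicate 2. Other introns of Tlr4 went in both directions by smaller steps. The region at 15.9 kb was higher in cKO, at 85.2 and 85.8 in WT against 89.6 and 89.2 in cKO. The region at 24.4 kb was lower, at 87.1 and 88.0 in WT against 80.2 and 82.4 in cKO.

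Tlr1 had a lower region in cKO beyond its 3′ end and a weak lost region at its promoter. The gene (ENSMUSG00000044827.10, chr5:64924679-64933563, minus strand) had 4 regions, and only 1 was shared. That region, 10.4 kb from the start and past the 3′ end (chr5:64922843-64923471), lay at 74.6 and 77.3 in WT against 56.3 and 54.5 in cKO. The libraries of each genotype were close together, at 75.9 ± 1.91 (SD, n = 2) and 55.4 ± 1.26 (SD, n = 2), and the difference was -20.6 points. The peaks there were also narrower in cKO (464 and 470 bp) than in WT (629 and 544 bp). The Tlr1 promoter region (chr5:64933486-64933754) was lost, but it was weak in WT, at percentiles 12.7 and 10.1. Its peak areas of 271 and 257 were near the limit of 200 below which the caller reports no peak, so a slightly weaker signal in cKO would also be absent from the lists. The other 2 regions had a peak in WT replicate 2 alone (percentile 8.48), and in all libraries except cKO replicate 1 (13.5 to 21.8).

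Tlr6, the neighbour of Tlr1 on the same strand (ENSMUSG00000051498.6, chr5:64952031-64960097), had the only gained region at these genes. This 208 bp region at the start site (chr5:64960016-64960223) was seen at percentiles 14.8 in cKO replicate 1 and 16.4 in cKO replicate 2, with areas of 277 and 289. It is as weak in cKO as the Tlr1 promoter is in WT. A far stronger region 1.24 kb upstream (chr5:64960775-64961908), which reaches into the promoter, was at 94.5 and 95.1 in WT against 93.4 and 95.3 in cKO. The groups overlapped there. Tlr1 and Tlr6 shared no region, although their windows overlap.

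Tlr5 (ENSMUSG00000079164.8, chr1:182954788-182976044, plus strand) had 7 regions, 5 of them shared, of which 3 were lower in cKO and none higher. The region 0.931 kb upstream of the start (chr1:182953556-182954158) lay at 64.7 and 66.8 in WT against 45.0 and 50.9 in cKO. Both cKO libraries were at least 13.8 points below WT, with means of 65.7 ± 1.48 (SD, n = 2) and 47.9 ± 4.16 (SD, n = 2) and a difference of -17.8 points. The start site itself was covered by a weak region with no peak in WT replicate 1 and percentiles of 14.9 in WT replicate 2, 0.556 in cKO replicate 1 and 28.8 in cKO replicate 2. An intronic region at 5.41 kb was also lower, at 52.0 and 62.0 in WT against 33.5 and 51.9 in cKO, where cKO replicate 2 almost reached WT replicate 1. The strongest region of the gene, 28.5 kb from the start, was at 77.3 and 79.9 in WT against 70.4 and 75.5 in cKO.

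Tlr2 (ENSMUSG00000027995.10, chr3:83836272-83841767, minus strand) kept its strong regions. Its top region, 3.49 kb upstream (chr3:83844826-83845695), was at 95.0 and 94.6 in WT against 93.9 and 95.2 in cKO, and the promoter region (chr3:83840843-83841983) at 87.0 and 90.5 in WT against 84.4 and 87.1 in cKO. The groups overlapped at both. An intronic region 2.11 kb from the start was lower in cKO, with a difference of -3.73 points, at 87.2 and 88.8 in WT against 82.8 and 85.7 in cKO. The largest difference of means at Tlr2, -14.4 points 1.85 kb upstream, did not separate the groups, since the libraries were spread from 22.3 to 39.0 in WT and from 6.63 to 25.9 in cKO.

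The endosomal receptors are described in turn, and differences between these genes were not tested. Tlr3 (ENSMUSG00000031639.12, chr8:45395665-45411080, minus strand) had 2 regions, both shared. Its promoter region (chr8:45409747-45411110) was higher in cKO, at 80.1 and 85.1 in WT against 86.4 and 87.1 in cKO, and the nearest libraries were 1.33 points apart. The upstream region (chr8:45414883-45415589) was at 88.4 and 88.2 in WT against 87.4 and 87.9 in cKO, a difference of -0.645 points.

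Tlr9 (ENSMUSG00000045322.10, chr9:106222598-106226883, plus strand) had a promoter whose libraries overlapped between genotypes, and 3 further shared regions that were lower in cKO. The promoter region (chr9:106222004-106222888) was at 74.7 and 77.5 in WT against 73.9 and 78.8 in cKO. An intronic region 0.683 kb from the start (chr9:106223053-106223510) was at 53.2 and 59.7 in WT against 37.8 and 38.3 in cKO. The means were 56.4 ± 4.60 (SD, n = 2) and 38.1 ± 0.360 (SD, n = 2), and the difference was -18.4 points. The exonic region at 3.81 kb was at 58.2 and 62.4 in WT against 48.5 and 56.6 in cKO. The strongest region, 7.81 kb from the start and past the 3′ end (chr9:106229786-106231028), was at 91.4 and 91.9 in WT against 87.1 and 88.7 in cKO. Only the first of these 3 regions had a gap of at least 10 points.

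Unc93b1 (ENSMUSG00000036908.17, chr19:3935186-3949340, plus strand) carried 2 of the 4 lost regions, both upstream of the gene. The proximal one, 3.24 kb upstream (chr19:3931733-3932154), was the strongest of the 5 regions with peaks in a single genotype, at percentiles 67.1 and 68.4 in WT, with areas of 1021 and 1108. It lies over AC133523.3, which is annotated as a processed pseudogene. Reads of a pseudogene can be confused with those of its parent gene, and how reads with several placements were handled is not given in the sources used here. The distal one, 7.05 kb upstream in an intron of Aldh3b1 (chr19:3927990-3928288), was weaker, at 28.3 and 31.8 in WT. Between these, a shared region (chr19:3929136-3930016) was at 80.5 and 83.0 in WT against 76.2 and 78.0 in cKO. At the start site, one promoter region (chr19:3935036-3935556) had overlapping groups, at 64.1 and 64.9 in WT against 61.1 and 64.3 in cKO. The next (chr19:3935687-3936297) was lower in cKO, at 44.4 and 42.9 in WT against 33.5 and 35.7 in cKO. None of the 3 shared regions of Unc93b1 was higher in cKO.

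The adaptor Myd88 had the widest difference of the 10 genes on the higher side, and a lower and a lost region as well. The gene (ENSMUSG00000032508.8, chr9:119335934-119341411, minus strand) shares its window with Acaa1a and Slc22a14 and had 6 regions. The region at its outermost start (chr9:119340737-119341872), which is also the promoter of Acaa1a, was the second strongest promoter of the family, at 98.5 and 98.3 in WT against 97.1 and 97.3 in cKO. A further Myd88 promoter region, 1.47 kb into the gene at another annotated start (chr9:119339498-119340387), was lower in cKO, with a difference of -17.0 points. It lay at 75.5 and 79.6 in WT against 59.1 and 62.1 in cKO, with means of 77.6 ± 2.87 (SD, n = 2) and 60.6 ± 2.14 (SD, n = 2). Its summit window held matches of NF-kB and of the IRF repeat. A region 1.83 kb upstream (chr9:119343026-119343460), within introns of Acaa1a and Slc22a14, was lost, from percentiles of 32.4 and 43.4 in WT.

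The largest difference among the shared regions of the 10 genes was 12.5 kb from the Myd88 start. This region lay past the 3′ end, in an intron of Slc22a14 (chr9:119328608-119329206). It was among the weakest peaks in WT, at 7.16 and 3.82, and in the middle of the lists in cKO, at 45.4 and 59.3. The means were 5.49 ± 2.36 (SD, n = 2) and 52.4 ± 9.79 (SD, n = 2), a difference of 46.9 points, and the nearest libraries were 38.3 points apart. The peak area was 239 and 220.4 in WT against 554 and 812 in cKO. The peaks covered 245 and 237 bp in WT and 589 and 599 bp in cKO, so they were of unlike extent, and the area grows with the width. Which gene this region serves was not measured.

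**Figure D3:**
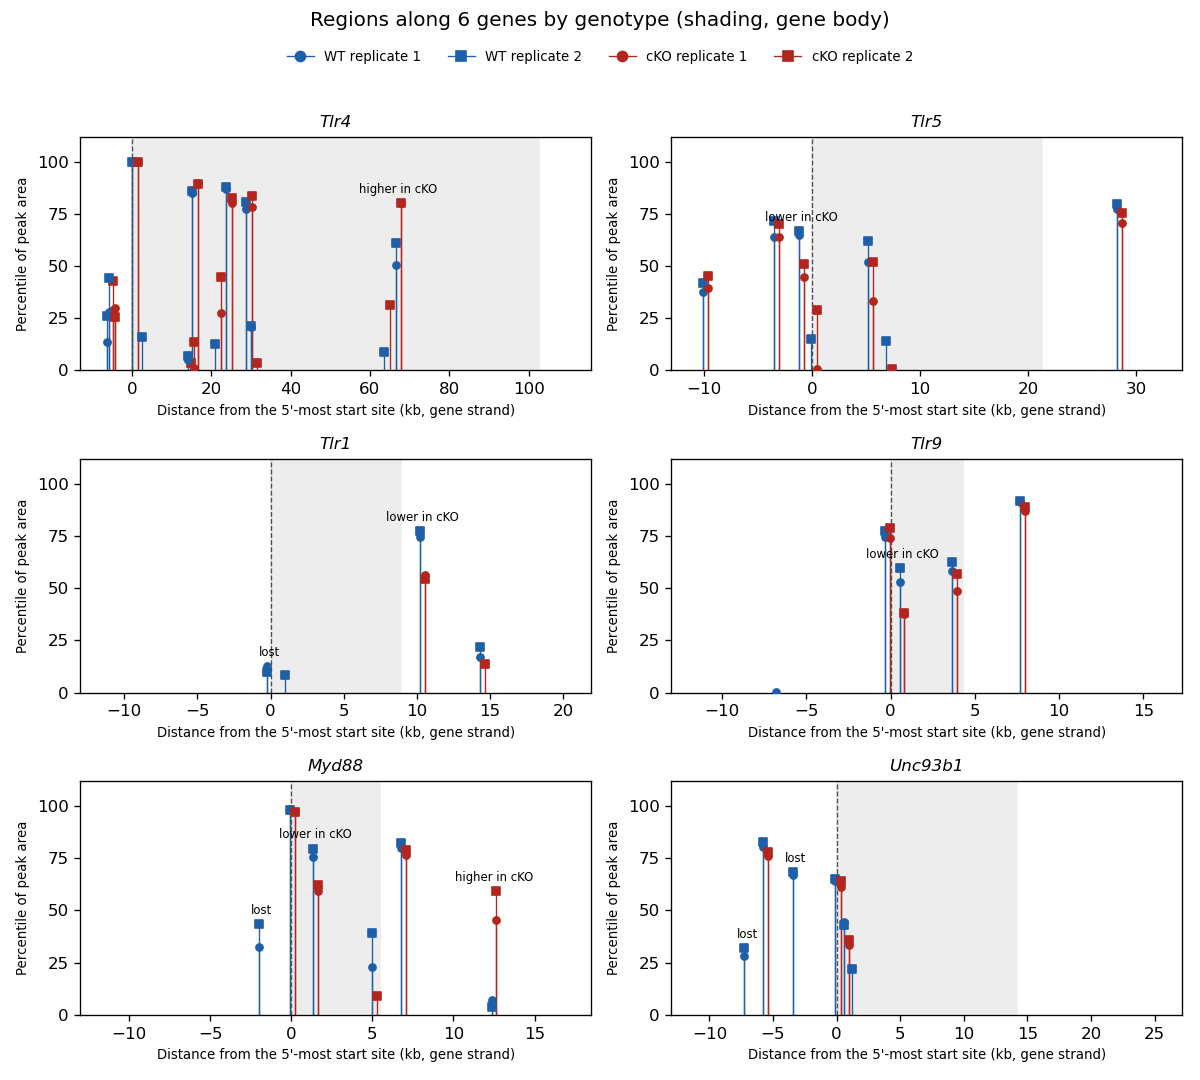
Percentile of peak area (y axis) of each region by the distance of its centre from the 5′-most start site (x axis, kb on the gene's strand) at 6 genes, with WT in blue and cKO in red (circles, replicate 1; squares, replicate 2; the genotypes are drawn side by side for clarity) and the gene body shaded. The 2 lost regions of Unc93b1 lie upstream of the gene, and the 2 regions that were higher in cKO by at least 10 points lie 67.2 kb into Tlr4 and 12.5 kb from the start of Myd88.

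Ticam1 (ENSMUSG00000047123.8, chr17:56269319-56276786, minus strand) had 4 regions, all shared, of which 3 were higher in cKO. The promoter region (chr17:56276488-56277708) was at 92.1 and 93.0 in WT against 94.6 and 95.2 in cKO, a difference of 2.36 points. The region 10.3 kb from the start was at 90.3 and 92.8 in WT against 95.5 and 95.8 in cKO. The region at 11.9 kb had the largest difference of means, 15.2 points, at 61.9 and 69.9 in WT against 72.2 and 89.9 in cKO, where the cKO libraries were far apart. The peak of cKO replicate 2 was a single one of 1539 bp there, while the other 3 libraries had 2 separate peaks each, of which the stronger was used, so that this difference compares peaks of unlike extent. The groups overlapped at the remaining region, at 67.9 and 68.7 in WT against 68.0 and 73.8 in cKO.

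**Figure D4:**
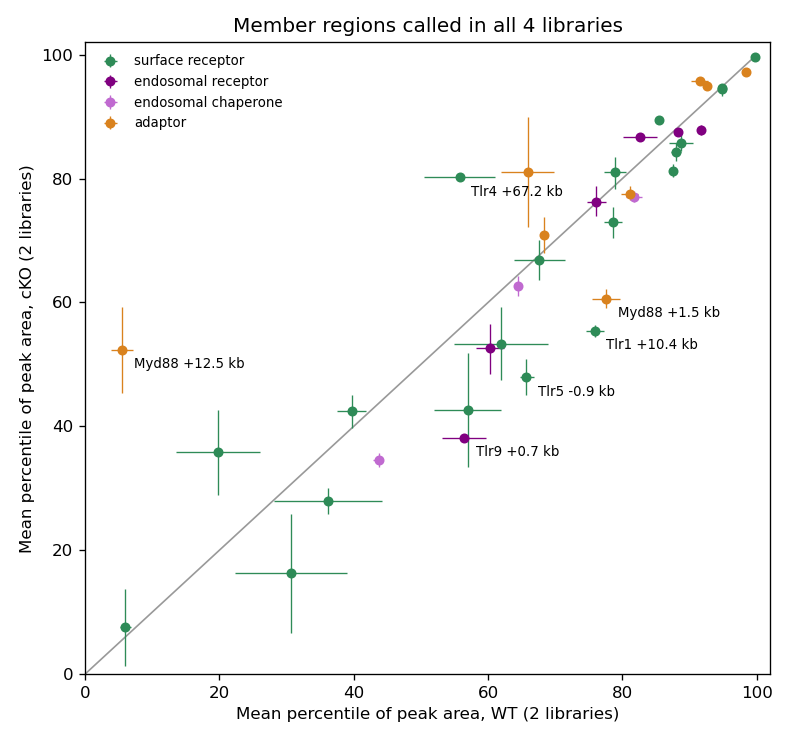
Mean percentile of peak area in WT (x axis) and cKO (y axis) of the 37 shared regions, coloured by role, with bars from the lower to the higher of the 2 libraries and a line of equality. The 6 labelled regions have a gap of at least 10 points between genotypes, 2 above the line and 4 below it.

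The shared promoter regions were also ordered by their mean percentile in each genotype. Tlr4 was first and the outermost Myd88 promoter second in both. Next in WT were Tlr6 (94.8), Ticam1 (92.6), Tlr2 (88.7) and Tlr3 (82.6). In cKO, Ticam1 (94.9) stood next to Tlr6 (94.4), whose libraries spread over the Ticam1 values, and Tlr3 (86.8) next to Tlr2 (85.7), whose libraries also overlapped. The inner Myd88 promoter stood above Tlr9 and the first Unc93b1 promoter by its mean in WT, at 77.6 against 76.1 and 64.5. In cKO it was below both, at 60.6 against 76.3 and 62.7, although its libraries overlapped with those of Unc93b1 there and with those of Tlr9 in WT. Of the 11 shared promoter regions, 2 were higher in cKO, 5 lower and 4 overlapping, and the Tlr4 promoter is among the 5 with a difference of -0.0223 points. Of the 26 shared regions elsewhere, 6 were higher, 11 lower and 9 overlapping. The median size of the difference was 2.36 points at promoters and 5.16 points elsewhere, but percentiles leave little room near 100, where several of the promoters lie.

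The regions at these genes were also compared by what they contain. Of the 55, 21 were centred in introns, 16 between genes, 12 in promoters and 6 in exons. AP-1 matches lay within 100 bp of the summit in 12 regions (21.8%, against 16.7% of all 71243), PU.1 matches in 6 (10.9%, against 11.0%) and C/EBP matches in 6 (10.9%, against 12.3%). The IRF repeat was found in 5 (9.09%, against 8.97%), RUNX in 5 (9.09%, against 8.38%) and NF-kB in 7 (12.7%, against 4.85%). The NF-kB matches lay at Tlr1, Tlr2, Tlr9, Myd88 and Unc93b1. AP-1 matches were present in 3 of the 8 regions that were higher in cKO and in 1 of the 16 that were lower. NF-kB matches were present in none of the 8 and in 3 of the 16. Matches among all higher and all lower regions of the series were not counted, so these numbers have no background. Both directions also include very small differences, such as that of the Tlr4 promoter. These are counts of letters near a summit, and they do not show that a factor was bound.

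A list of 32 other genes of the pathway was examined in the same windows. They had 218 regions, of which 162 were shared, 11 were gained (5.05%, against 3.72% of all regions) and 13 lost (5.96%, against 7.25%). A promoter region in all 4 libraries was present at 29 of the 32, against 53.3% of all protein-coding genes. Gained regions were found at 7 genes (21.9%, against 11.1% of protein-coding genes with a region) and lost regions at 11 (34.4%, against 21.8%), and 5 genes had both. A gap of at least 10 points to the higher side was found in 18 of the 162 shared regions (11.1%, against 5.20% of all) at 13 genes, and to the lower side in 20 (12.3%, against 9.66%) at 12 genes. By gene these are 40.6% and 37.5%, against 10.1% and 18.3%. No test of the list was made, and a gene with more regions has more chances of a call. In the account of single genes that follows, higher and lower stand for a gap of at least 10 points.

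Among the other receptors, Tlr7, Tlr8, Tlr11 and Tlr13 had a region that was higher in cKO, and all 4 of these regions lay outside promoters. A region of the endosomal receptor gene Tlr7 (chrX:167301696-167302544) was at 43.2 and 44.9 in WT against 61.0 and 66.8 in cKO. Tlr13, whose product recognises bacterial ribosomal RNA, had regions in both directions. One of its introns was at 58.7 and 64.6 in WT against 18.7 and 31.3 in cKO, another held a lost region, and a region beyond the gene was at 34.1 and 43.1 in WT against 58.3 and 62.1 in cKO.

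The co-receptor genes, which serve surface receptors, had 47 regions, of which 33 were shared. Of the 33, 6 were lower and 3 higher, where the background was 9.66% and 5.20% of all shared regions. Of the 47, 3 were gained and 4 lost, where the background was 3.72% and 7.25% of all regions. Cd14, which passes lipopolysaccharide to TLR4, had 2 regions that were lower, 1 of them at 74.4 and 75.8 in WT against 51.8 and 60.5 in cKO. Ly96, the gene of the TLR4 partner MD-2, had an intronic region at 80.2 and 82.1 in WT against 62.4 and 64.9 in cKO, a second lower intronic region, and 1 that was higher, at 12.9 and 37.0 in WT against 47.9 and 54.2 in cKO. Ly86, which encodes the partner of CD180, lost a region in its promoter window, at 46.9 and 53.8 in WT. Cd180 had 1 gained and 1 lost region, with 2 further regions lower and 1 higher. Cd36, a scavenger receptor that assists TLR2, had 2 gained and 2 lost regions and 1 that was higher.

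Among the trafficking genes, Cnpy3, a chaperone of several receptors, had an exonic region at 81.3 and 81.9 in WT against 44.4 and 53.7 in cKO. Slc15a4, an endolysosomal transporter needed for endosomal receptor signalling, had 2 regions that were higher, 1 of them at 11.7 and 16.7 in WT against 53.6 and 65.8 in cKO, and 1 that was lower. Ap3b1, of the AP-3 sorting complex, had 1 that was lower.

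Among adaptors and kinases, Tirap, which bridges TLR2 and TLR4 to MyD88, had a region 17.0 kb from its start at 64.4 and 68.2 in WT against 88.1 and 90.0 in cKO. Each WT library had 2 separate peaks there, of which the stronger was used, and each cKO library a single one. This difference thus compares peaks of unlike extent. The summit −log10 p-values there were 6.04 and 6.66 in WT against 6.11 and 6.83 in cKO. The kinase gene Irak2 had 2 gained regions, 1 lost, 5 lower and 1 higher. Of the 5 lower ones, that with the widest difference was in an exon of Vhl, 7.93 kb upstream of Irak2, at 77.6 and 78.5 in WT against 27.9 and 39.3 in cKO. Pik3ap1, an adaptor that links the receptors to phosphoinositide 3-kinase, had 3 gained regions, 1 lost and 4 higher, with none lower. The inhibitory kinase gene Irak3 had 1 lost region, 2 higher and 1 lower, and Irak4 1 gained region and 1 higher. The lower region of Irak3 had 1 peak in each WT library and 2 in each cKO library, so it too compares peaks of unlike extent. Traf3 had 1 gained promoter region and 2 lost regions, and Traf6 1 gained region. Lost regions were also found at Ticam2, Sarm1 and Tab2, and regions that were lower at Ticam2, Map3k7 and Ikbke.

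The lists as a whole held 55742 and 64939 peaks in WT and 51955 and 60884 in cKO, so replicate 2 was longer in both genotypes. The region over exon 2 of H3f3a, the exon flanked by loxP sites (chr1:180811715-180812055), had weak peaks in WT alone, at 5.02 and 19.1. At H3f3b, which the study also floxed, an exonic region (chr11:116023771-116024892) was still called in cKO, at 94.2 and 95.5 in WT against 87.0 and 81.4 in cKO, as was the promoter region (chr11:116027762-116028173), at 23.7 and 34.3 in WT against 28.7 and 42.5 in cKO. The peaks thus do not show a complete deletion of H3f3b. Promoters of 6 of 6 macrophage markers had a peak in all 4 libraries. The promoters of all 3 T cell and both erythroid markers had none in any library. Of the 3 B cell markers 1 (Ms4a1) and of the 3 fibroblast markers 2 (Col1a1 and Pdgfra) had a peak in all 4, and of the 3 neutrophil markers 1 (Ly6g) had a peak in both cKO lists alone. The part of these other markers in the results above was not tested.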

How the data were processed

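ATAC-seq was measured in 2 WT and 2 cKO libraries, with groups and numbers from the sample titles. Paired reads were aligned by the authors to mm10 with Bowtie2 2.5.1, and peaks were called per library with Genrich at default settings (its version, read filters and any transposase shift are not given in the sources used here). Each deposited list held the signal used here, the peak area under the significance curve. The deposited −log10 p-value at the summit served as an alternative ranking, and the deposited score was not used. Areas depend on depth, which is unknown because the lists hold no read counts, so neither the study's DiffBind test nor counting intervals could be computed. Areas were therefore turned into percentiles within a list. No peak below an area of 200 was listed.

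Peaks overlapping by at least 1 bp were merged (Python 3.11.15, pandas 2.3.3, numpy 2.4.6), and a region with more than 1 peak in a library took the highest percentile. Genes, starts and classes came from the full GENCODE M21 annotation. Sequences were read with pysam from a genome indexed with samtools 1.23.1. The region calls were tested on simulated peak lists. Named were all 10 genes, all promoter, gained and lost regions, those with a gap of at least 10 points, each gene's top region, and the listed pathway genes with such regions. The members, gene lists and motifs were chosen with earlier results of these data known. Alternatives covered the peak threshold, list length, flank, overlap, ranking measure, promoter width and single libraries.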

Additional observations from a re-analysis of the deposited data

How the results depend on the processing

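The counts at these genes are small, so 1 or 2 regions moved them. With peaks above each list's median area, 0 regions were gained, at 0 genes, and 2 lost, while 3.81% of all regions were gained and 7.06% lost. The only region with peaks in a single genotype among the 5 named above that kept its call was the proximal one of Unc93b1. Lists of equal length gave 3 gained regions (7.04% of all regions, in place of 3.72%), at 3 genes, and the Tlr1 promoter was no longer lost. Calls that required peaks over 50% of a region also gave 3 gained regions at 3 genes, while 4.10% of all regions were gained. A flank of 2 kb left 2 lost, 4 higher and 12 lower regions, as fewer regions entered. A flank of 25 kb gave 5 lost, 11 higher and 34 lower ones, as more entered. The background of 22.2% higher and 35.1% lower is the same at each flank. The shared regions in these other windows were not counted, so no share is given for them. Only 2 shared regions were higher and 4 lower with a gap of at least 10 points.

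Leaving out single libraries gave 1 to 3 gained regions at 1 to 3 genes, with 3 without WT replicate 2 (7.93% of all regions) and without cKO replicate 1 (9.16%). It gave 4 to 7 lost regions, with 7 without WT replicate 1 and without cKO replicate 2 (up to 14.4% of all regions). It gave 9 to 15 higher regions, with 15 without cKO replicate 1 (38.7% of all shared regions), and 16 to 25 lower ones, with 25 without cKO replicate 2 (56.6%). The shares over all regions rose as well, since 3 libraries separate more often than 4, but the rises were uneven. Without WT replicate 1, 14.4% of all regions were lost and 3.88% gained. Without WT replicate 2, 8.27% were lost and 7.93% gained. Within a replicate block, comparing cKO with WT inside replicate numbers 1 and 2, 11 shared regions were higher and 21 lower (33.3% and 48.7% of all), with 1 gained and 4 lost. The numbers share no stated animal or batch, and deviations of same-numbered libraries correlated at 0.295 over all shared regions.

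The 6 regions with a gap of at least 10 points kept their direction in each alternative that gave a value. Leaving out a single library could not reverse it, since the regions were chosen with both cKO percentiles beyond both WT percentiles. The ranking by the summit value in place of the area could reverse it. It is no separate check, since area and summit value are measures of the same peaks in the same libraries. That ranking gave 27.9 points at the region beyond Myd88, 29.0 at Tlr4, -29.0 at Tlr1, -19.7 at Tlr5, -21.0 at Tlr9 and -16.3 at the Myd88 promoter. The difference ranged from 27.9 to 53.8 points at the region beyond Myd88 and from 19.1 to 48.8 at Tlr4. It ranged from -41.1 to -19.2 at Tlr1 and from -20.7 to -14.9 at Tlr5. At Tlr9 the range was -21.6 to -15.1, and at the Myd88 promoter -33.9 to -14.9. The ends of 48.8, -41.1 and -33.9 came from the stricter threshold, which ranks fewer peaks anew and so widens differences in points. Without that threshold the ends were 29.7 at Tlr4, -29.0 at Tlr1 and -19.0 at the Myd88 promoter. The stricter threshold gave no value at Tlr5, Tlr9 and the region beyond Myd88, and the last was no longer shared with lists of equal length or calls over 50% of a region. Genes with a promoter region in all 4 libraries numbered 7 to 9, with 9 also for starts of the basic transcript set, an alternative chosen after the data were seen. Within 50 bp of the summit, PU.1, C/EBP, IRF repeat and NF-kB matches numbered 3 each (5.45%), as the window was smaller. Over all regions the shares in that window were 7.76%, 6.06%, 3.80% and 2.39%, in the same order. Depth is unknown, and a site just under the caller's limit is absent from a list.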
